A study of Mus musculus with 2 samples.

Results

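A set of 8 genes for myeloid C-type lectin receptors (Clec4a1, Clec4a2, Clec4a3, Clec4n, Clec7a, Clec9a, Clec10a and Clec12a) was examined in immune cells of the mouse adrenal gland. The genes are those of a named list. Of the 8, 7 were among the 32285 genes of the feature table. Clec7a was not, so only its promoter enters the comparisons below. Living CD45+ cells had been sorted from the adrenal glands of C57Bl/6 mice aged 7 weeks. Droplet libraries (10x Genomics 3' kit) were made, 1 from females and 1 from males. No genotype, treatment or allele separates the groups, so sex is the only labelled contrast, and the number of animals behind each library is not given in the sources used here. After filtering, 3694 female and 2449 male cells with 15045146 and 9035910 unique molecular identifiers (UMIs) were used, and the libraries shared 2 cell barcodes. Sex and library cannot be told apart, and every interval below covers counting error only.

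C-type lectin receptors are membrane proteins with a carbohydrate-recognition fold that myeloid cells use to bind sugars of microbes and ligands of damaged cells. Activating receptors such as Dectin-2, the product of Clec4n, signal through the adaptor Fcer1g and the kinase Syk towards Card9, while inhibitory receptors carry an immunoreceptor tyrosine-based inhibitory motif that recruits phosphatases such as Ptpn6. The Clec4a genes encode the dendritic cell immunoreceptor (DCIR) family, Clec9a encodes DNGR-1, a receptor for exposed actin of dead cells, Clec10a encodes a receptor for galactose-type sugars, and Clec12a encodes an inhibitory receptor for uric acid crystals.

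Cells were grouped in 22 clusters made without the members among the clustering features. Clusters were named from marker genes, which left 2 unnamed. Among adrenal gland macrophages (AGMs), a Lyve1-high cluster held 99 female and 166 male cells and an Aldh1a2-high cluster held 86 and 102. The other macrophages held 635 and 531 cells in 3 clusters led by AA467197, Aif1 and Ms4a7. Classical monocytes (193 and 109 cells), nonclassical monocytes (103 and 70), type 1 conventional dendritic cells (cDC1, 43 and 36), type 2 (cDC2, 140 and 92) and neutrophils (47 and 50) were the remaining myeloid classes. With B, T and natural killer (NK) cells, ILC2 and endothelial cells, 13 classes had at least 20 cells in each library. Levels are given as CPM, the summed UMIs of a gene in a class per 1000000 UMIs of its cells, and each UMI is a molecule counted at its 3' end. Among the defining markers, C1qa was at 5628 and 5683 CPM in the female and male other macrophages and at 38.3 and 55.1 CPM in NK cells, and S100a8 was at 79276 and 59413 CPM in neutrophils.

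The members lie in 3 places of the genome (GENCODE M21 annotation of GRCm38, the mm10 build of the files). Clec4a1 (ENSMUSG00000049037, chr6:122921848-122934619), Clec4a3 (ENSMUSG00000043832, chr6:122952515-122969875), Clec4a2 (ENSMUSG00000030148, chr6:123106428-123143999) and Clec4n (ENSMUSG00000023349, chr6:123229843-123247021) follow each other on the plus strand. Clec12a (ENSMUSG00000053063, chr6:129342691-129365303) and Clec9a (ENSMUSG00000046080, chr6:129408862-129424763), both on the plus strand, lie further along the same chromosome. Clec10a (ENSMUSG00000000318) is on chr11:70156197-70170834, plus strand. Clec9a overlaps Clec1b and Gm43914 on its own strand, and Clec4a2 overlaps Gm44132. In the last 500 bases of the members' transcripts, 12.0% of the 55-base windows (the length of the cDNA read) of Clec10a also occurred in Mgl2, 7.94% of those of Clec4a2 in Clec4a4 or Clec4b1, 2.68% of those of Clec9a in Clec1b and 0.605% of those of Clec4n in Gm44147. For Clec4a1, Clec4a3 and Clec12a no window was shared.

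The 250 bases before the start are shown for the 3 neighbouring Clec4a genes, because Clec4a1 and Clec4a3 had their highest levels in monocytes and Clec4a2, the next member along, did not, and for Clec12a, which was detected in nearly every myeloid class. Sequences are from RefSeq (GRCm38.p6), written 5' to 3' on the plus strand, with capitals for matches to the searched motifs. The promoter set used here held 6 of the 8 members, without Clec4n and Clec10a. The regions are chr6:122921598-122921847 for Clec4a1, chr6:122952265-122952514 for Clec4a3, chr6:123122440-123122689 for Clec4a2 and chr6:129349994-129350243 for Clec12a. The RefSeq starts of Clec4a2 and Clec12a lie inside the GENCODE gene.
Clec4a1: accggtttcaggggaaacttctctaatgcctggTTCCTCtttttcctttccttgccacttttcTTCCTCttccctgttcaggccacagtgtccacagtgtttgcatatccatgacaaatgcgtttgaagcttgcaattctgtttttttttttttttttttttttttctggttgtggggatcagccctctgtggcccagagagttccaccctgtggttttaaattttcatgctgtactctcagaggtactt
Clec4a3: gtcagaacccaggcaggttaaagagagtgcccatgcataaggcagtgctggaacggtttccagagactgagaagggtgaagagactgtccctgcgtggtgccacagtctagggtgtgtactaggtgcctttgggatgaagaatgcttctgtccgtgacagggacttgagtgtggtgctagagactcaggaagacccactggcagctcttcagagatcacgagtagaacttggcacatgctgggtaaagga
Clec4a2: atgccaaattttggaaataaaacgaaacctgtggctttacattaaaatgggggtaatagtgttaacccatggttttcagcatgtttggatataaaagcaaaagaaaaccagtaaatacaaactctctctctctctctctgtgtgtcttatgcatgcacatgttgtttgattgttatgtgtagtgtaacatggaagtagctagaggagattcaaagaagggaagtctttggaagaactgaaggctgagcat
Clec12a: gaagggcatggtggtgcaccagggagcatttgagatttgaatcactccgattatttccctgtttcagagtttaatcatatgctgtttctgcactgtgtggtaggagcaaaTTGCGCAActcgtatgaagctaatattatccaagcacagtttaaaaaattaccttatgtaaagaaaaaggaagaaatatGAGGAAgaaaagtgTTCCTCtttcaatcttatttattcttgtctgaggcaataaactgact
The ETS-type core GAGGAA was found on the minus strand at 2 positions of Clec4a1 (-217 and -187 from the start) and on either strand of Clec12a (-61 and -47). It was also found once in Clec7a, so 3 of 6 members held it, against 23.1% of 27025 promoters of the same length. The C/EBP-type element TTGCNNAA was found at -140 of Clec12a, on both strands at the same bases, against 9.55% of promoters. Neither the NBRE element AAAGGTCA (1.31% of promoters) nor the IRF element (3.04%) was found in the 6 members. Searches covered both strands, and a match is a run of letters, not a bound site. Aligned end to end, the promoters of Clec4a1 and Clec4a3 were 43.2% identical, while the 15 pairs of members ranged from 38.7% to 47.5%.

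Among the 13 ordered classes, each member had its highest level in the same class of both libraries. With the clustered classes this held for 7 of 7 members. Of the 11249 genes with at least 50 UMIs, 43.1% had the same highest class in both libraries. The 7 of 7 did not hold when cells were gated one by one on a few markers. Under clustering, nonclassical monocytes were highest for Clec4a1 and Clec4a3 (4.29% of all genes), and other macrophages for Clec4a2 and Clec4n (1.97%). The cDC1 were highest for Clec9a (1.37%), Lyve1-high macrophages for Clec10a (3.48%) and classical monocytes for Clec12a (0.747%). With the gates, the female nonclassical to classical ratio was 0.743 (0.552 to 0.989) for Clec4a1 and 0.688 (0.508 to 0.919) for Clec4a3. The female Lyve1-high to cDC2 ratio of Clec10a was 0.771 (0.499 to 1.17). The male order of classical monocytes and Lyve1-high macrophages turned for Clec12a. The main male order held for Clec4a1 (1.51, nonclassical monocytes to Lyve1-high macrophages). It also held for Clec4a3 (1.45, nonclassical to classical monocytes) and Clec10a (1.71, Lyve1-high macrophages to cDC2). The male nonclassical to classical ratio of Clec4a1 was not recomputed with gates. The classes differ in size and depth, and the order covers pooled classes only. In the female library Clec12a was at 305 CPM in classical monocytes. It was at 435 CPM in plasmacytoid dendritic cells, too few to be ordered, and at 414 CPM in the macrophage cluster led by Ms4a7. In the male library the last 2 were lower, at 196 and 257 CPM against 354 CPM in classical monocytes.

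**Figure D1:**
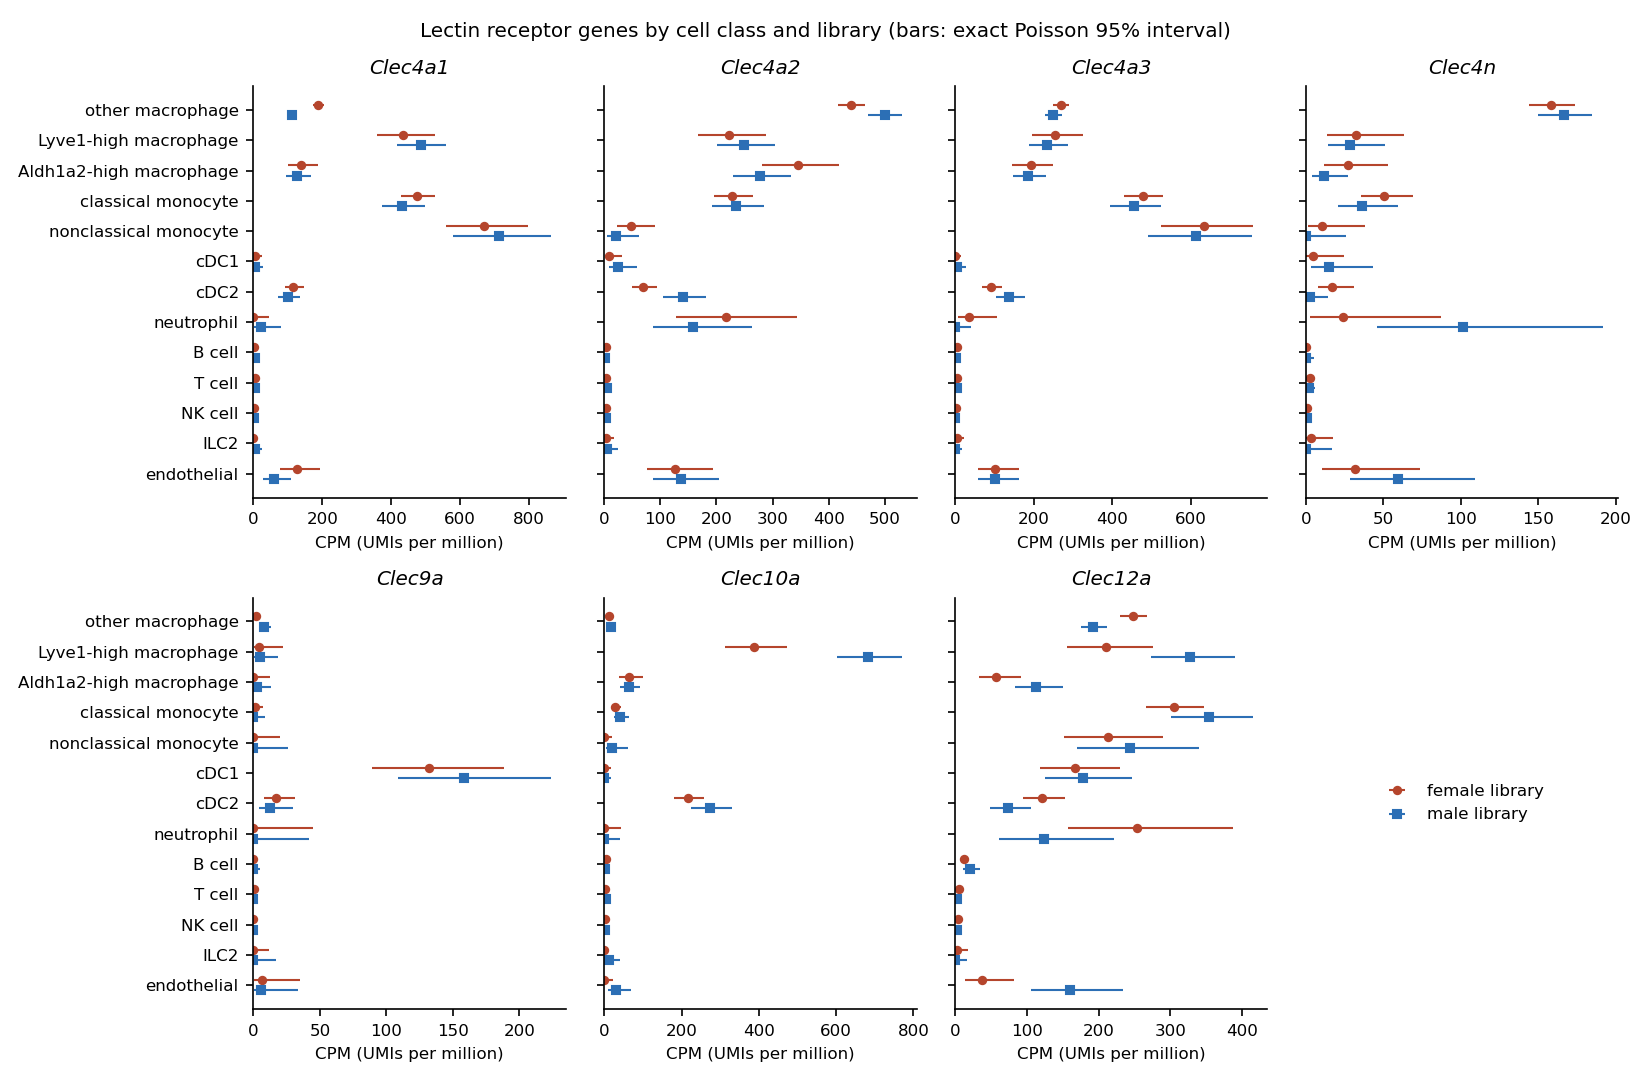
CPM of the 7 measured members (one panel each, linear axes of their own) in 13 cell classes of the female (circles) and male (squares) library, with exact Poisson 95% intervals. Clec4a1 and Clec4a3 peak in nonclassical monocytes (670.4 and 712 CPM, and 633 and 614 CPM), where Clec4a2 and Clec4n are near the axis, and Clec9a and Clec10a stand out in 1 and 2 classes.

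Clec4a1 and Clec4a3 encode DCIR-family receptors of the same gene cluster, and both were most abundant in monocytes. Clec4a1 was at 670.4 CPM (95% interval 558 to 798) in female and 712 CPM (580 to 864) in male nonclassical monocytes, from 126 and 102 UMIs. It was lower in classical monocytes, at 476 and 432 CPM, and in Lyve1-high macrophages, at 436 and 485 CPM, and these classes did not differ from each other beyond counting error. Other macrophages held 188 and 112 CPM, Aldh1a2-high macrophages 139 and 127, and cDC2 116 and 99.2. Clec4a3 ran from 633 and 614 CPM in nonclassical monocytes through 478 and 457 in classical monocytes to 269 and 249.9 in other macrophages and 254 and 234 in Lyve1-high macrophages. The nonclassical to classical ratio was 1.41 (1.14 to 1.73) and 1.65 (1.28 to 2.11) for Clec4a1 in the female and male library, and 1.32 (1.07 to 1.63) and 1.34 (1.03 to 1.74) for Clec4a3. When cells were gated one by one on a few markers instead of clustered, the female ratios were 0.743 (0.552 to 0.989) for Clec4a1 and 0.688 (0.508 to 0.919) for Clec4a3, so the order of the monocyte types in the female library depended on how cells were assigned. The male ratio of Clec4a3 was 1.45 (1.016 to 2.06) with these gates, and that of Clec4a1 was not recomputed with them. For Clec4a3 the interval also included 1 in female cells under a mitochondrial ceiling of 5% (1.23, 0.945 to 1.59) and in male cells of at least 1000 UMIs (1.28, 0.977 to 1.67). The genes parted in macrophages: the Lyve1-high to other macrophage ratio was 2.31 (1.86 to 2.85) and 4.34 (3.57 to 5.27) for Clec4a1, and 0.943 (0.718 to 1.22) and 0.935 (0.739 to 1.17) for Clec4a3.

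After each cell had been thinned to 1000 UMIs, 42.3% of female and 45.0% of male nonclassical monocytes held a Clec4a1 UMI, and 42.3% and 46.7% a Clec4a3 UMI. Without thinning, the shares were 57.3% and 61.4%, and 57.3% and 68.6%. In NK cells, which should lack both, the thinned shares were 0.232% and 0.542% for Clec4a1, and no thinned NK cell held Clec4a3 (0 of 861 and 0 of 369 cells, which allows up to 0.348% and 0.813% at a floor of 3 counts, with exact upper limits of 0.428% and 0.995%). Median depths were 1418 and 2018 UMIs in nonclassical monocytes and 4142.5 and 4858.5 in NK cells. Neutrophils held 0 and 2 UMIs of Clec4a1 and 3 and 0 of Clec4a3, so the pair separated monocytes from neutrophils in both libraries.

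Clec4a2 encodes DCIR1, an inhibitory receptor, and among monocytes it was higher in the classical than in the nonclassical type. Its level was 439.9 CPM (416 to 465) in female and 499.8 CPM (471 to 530.2) in male other macrophages. Aldh1a2-high macrophages followed at 345 and 278 CPM, and the ratio of other to Aldh1a2-high macrophages was 1.27 (1.04 to 1.58) in the female and 1.80 (1.49 to 2.19) in the male library. The female ratio was 1.03 (0.822 to 1.29) with per-cell marker gates, 1.21 (0.994 to 1.49) with no doublet removal and 1.22 (0.994 to 1.505) with the members among the clustering features. Classical monocytes (228 and 235 CPM) and Lyve1-high macrophages (222 and 249.1 CPM) could not be ordered beyond counting error. Nonclassical monocytes held 9 female and 3 male UMIs, or 47.9 and 20.9 CPM. The nonclassical to classical ratio of Clec4a2 was 0.210 (0.0945 to 0.408) and 0.0890 (0.0181 to 0.267). With the clustered classes this was opposite in direction to Clec4a1 and Clec4a3 in the same cells. With per-cell marker gates, the female ratios of Clec4a1 and Clec4a3 were 0.743 and 0.688, in the same direction as these clustered Clec4a2 values. The nonclassical to classical ratio of Clec4a2 was not recomputed with gates or under the other alternatives. C1qa, a macrophage gene, was at 261 and 272 CPM in nonclassical monocytes and at 83.5 and 119 CPM in classical monocytes. C1qb, another, was at 176 and 216 CPM in nonclassical and at 185 and 235 CPM in classical monocytes. The part of macrophage RNA in the monocyte values was not tested. Neutrophils carried Clec4a2 at 217 CPM (129 to 343) and 157 CPM (86.0 to 264), from 18 and 14 UMIs.

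Clec4n encodes Dectin-2, an activating receptor for fungal mannans, and within AGMs it was found in the other macrophages. Its level there was 159 CPM (144 to 174) in the female and 167 CPM (150.01 to 185) in the male library, against 32.3 and 28.5 CPM in Lyve1-high and 27.1 and 11.8 CPM in Aldh1a2-high macrophages. The Lyve1-high to other macrophage ratio was 0.204 (0.0873 to 0.405) in the female and 0.171 (0.0848 to 0.310) in the male library, and the Aldh1a2-high to other macrophage ratio was 0.171 (0.0733 to 0.339) and 0.0706 (0.0228 to 0.166). Classical monocytes held 50.3 and 36.6 CPM. In male neutrophils Clec4n was at 101 CPM from 9 UMIs (46.3 to 192), which did not differ from male other macrophages beyond counting error, while female neutrophils held 2 UMIs. Within the other macrophages, Clec4n was highest in the cluster led by Ms4a7, at 254 and 241 CPM, against 106 and 132 CPM in the cluster led by AA467197, a ratio of 2.40 (1.92 to 2.99) and 1.82 (1.43 to 2.31).

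Clec9a, the DNGR-1 gene and a known mark of cDC1, was found at 132 CPM (89.0 to 188) in female and 159 CPM (108 to 224) in male cDC1, from 30 and 32 UMIs. In cDC2 it was at 16.8 and 12.7 CPM, 7.84-fold (3.73 to 18.0) and 12.5-fold (4.82 to 41.0) lower. B, NK, ILC2, neutrophil and nonclassical monocyte classes held no UMI of it in either library. Other macrophages held 5 female and 18 male UMIs, a level of 1.75 and 8.15 CPM. Clec9a UMIs were detected in 41.9% of female and 55.6% of male cDC1 before thinning and in 14.3% and 11.1% after it.

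Clec10a encodes a macrophage galactose-type lectin, and it was highest in Lyve1-high macrophages and cDC2. Its level was 387 CPM (314 to 473) in female and 682 CPM (602.5 to 770.1) in male Lyve1-high macrophages. It was 217 CPM (181 to 258) and 275 CPM (225 to 332) in cDC2. Among AGMs it was 34.5-fold (22.9 to 53.2) and 36.8-fold (26.4 to 52.4) higher in Lyve1-high than in other macrophages, which held 11.2 and 18.6 CPM. Aldh1a2-high macrophages were between them at 64.3 and 63.5 CPM in the female and male library. The Lyve1-high to cDC2 ratio was 1.78 (1.35 to 2.34) in the female and 2.48 (1.98 to 3.14) in the male library. In the female library it was 1.06 (0.668 to 1.62) with a mitochondrial ceiling of 5% and 0.771 (0.499 to 1.17) with per-cell marker gates, and both intervals include 1. No Clec10a UMI was found in cDC1 or neutrophils of either library (floors of 13.2 and 14.9 CPM in female and male cDC1, at 3 counts). Mgl2, the related gene in which some Clec10a windows also occurred, was at 1404 and 1440 CPM in Lyve1-high macrophages and 329.96 and 636 CPM in cDC2.

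Clec12a, an inhibitory receptor gene, had UMIs in each ordered myeloid class of both libraries. Classical monocytes held 305 CPM (267 to 347) in the female and 354 CPM (300.5 to 414) in the male library, and the next classes (neutrophils at 253 CPM in the female library, Lyve1-high macrophages at 327 CPM in the male library) did not differ from that beyond counting error. With per-cell marker gates the male order of these classes turned. With a mitochondrial ceiling of 5% the female ratio of classical monocytes to neutrophils was 0.905 (0.577 to 1.49). Nonclassical monocytes held 213 and 244 CPM, other macrophages 248 and 193, cDC1 167 and 178, and cDC2 121 and 73.8. Within the other macrophages, the cluster led by Ms4a7 held 414 and 257 CPM and the cluster led by AA467197 held 165 and 175. The ratio of these clusters was 2.52 (2.12 to 2.99) in the female and 1.47 (1.18 to 1.83) in the male library. Aldh1a2-high macrophages were lowest among AGMs, at 57.5 and 113 CPM, with a ratio to other macrophages of 0.232 (0.134 to 0.374) and 0.586 (0.425 to 0.791). Among lymphocytes, B cells held 12.4 CPM (7.79 to 18.8) and 20.9 CPM (11.7 to 34.5), above NK cells at 4.6 CPM (2.79 to 7.24) and 3.06 CPM (1.12 to 6.67). C1qa was at 38.4 and 34.9 CPM in B cells and 38.3 and 55.1 CPM in NK cells. The part of macrophage RNA in the B cell values was not tested. The B cell cluster led by Ighd held 22.3 and 22.0 CPM of Clec12a. The cluster led by Igkc held 3.27 CPM from 3 UMIs in the female and 19.5 CPM from 6 UMIs in the male library.

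The endothelial class carried members too, which a sort for CD45+ cells should not hold. The 7 members together reached 428 CPM in female and 553 CPM in male endothelial cells, against 12.4 and 11.2 CPM in NK cells. C1qa was at 1278 and 1208 CPM in the same endothelial cells, and 5 cells held 92.1% of the female and 79.3% of the male C1qa UMIs of the class. The part of macrophage RNA in these values was not tested.

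**Figure D2:**
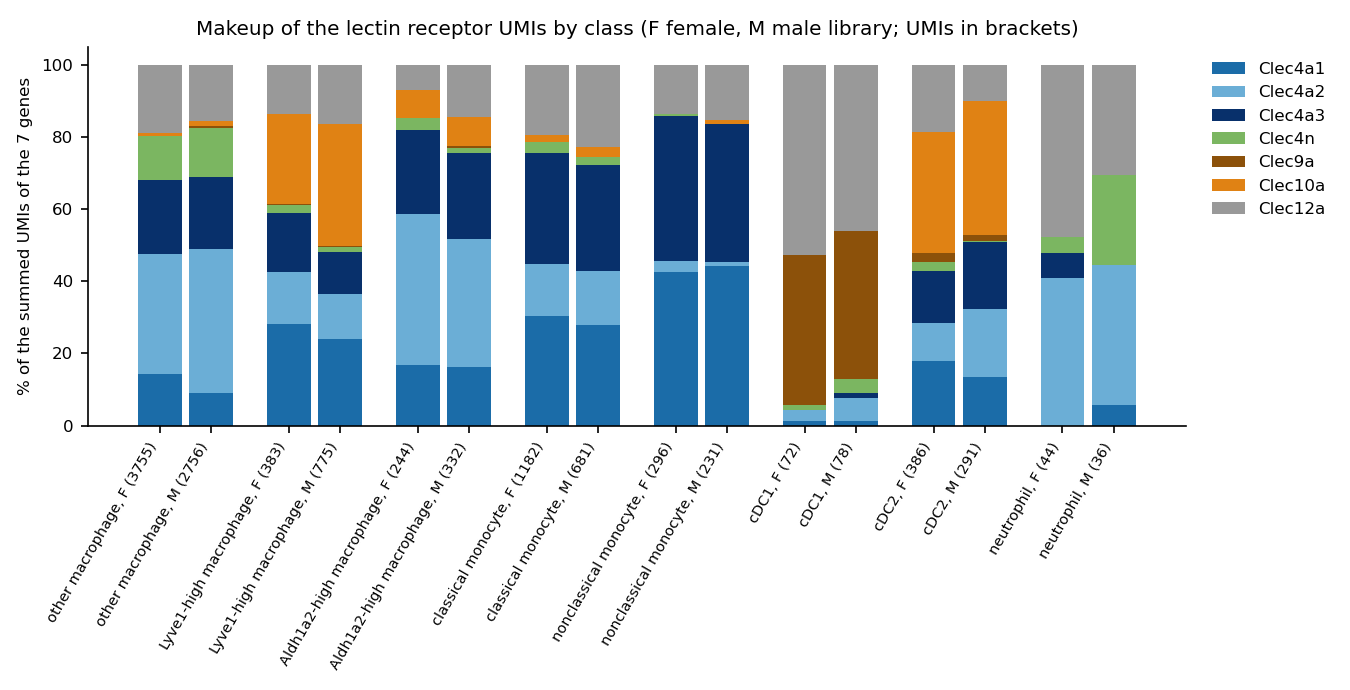
Percent of the summed UMIs of the 7 members that each member gives, in 8 myeloid classes of the female (F) and male (M) library, with the summed UMIs in brackets. Clec4a1 and Clec4a3 make up most of the nonclassical monocyte bars (42.6% and 40.2% in the female library), Clec10a shows in Lyve1-high macrophages and cDC2, and Clec9a in cDC1.

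The makeup of the members' UMIs differed between myeloid classes, and most classes had the same leading member in both libraries. In female and male nonclassical monocytes Clec4a1 gave 42.6% and 44.2% and Clec4a3 40.2% and 38.1% of 296 and 231 UMIs. In other macrophages Clec4a2 led with 33.4% and 40.1% of 3755 and 2756 UMIs. In cDC1, Clec9a gave 41.7% and 41.0% and Clec12a 52.8% and 46.2% of 72 and 78 UMIs. Clec10a gave 25.1% and 33.9% of the Lyve1-high UMIs, beside 28.2% and 24.1% for Clec4a1, and 33.4% and 37.1% of those of cDC2. A thinned Lyve1-high macrophage held UMIs of 1.23 members on average in the female and 1.52 in the male library, an other macrophage of 1.12 and 1.02, and no cell held more than 4.

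Profiles over the 13 classes in both libraries (26 points that share libraries and depth) were compared by Pearson's r of log2(CPM + 10), as a description. Clec4a1 and Clec4a3 were the closest pair of members (r = 0.946), followed by Clec4a2 and Clec4n (r = 0.834), and Clec9a was unlike the rest, with r from -0.174 to 0.287. Outside the set, the genes closest to Clec4a1 were Plxnb2 (0.959), Lrp1 (0.952) and Ticam2 (0.943). Clec4a3 was closest to Lrp1 (0.979), Ctsa (0.935) and Lamp1 (0.931). Clec4a2 was closest to Atp6v0c (0.948), Cebpa (0.931) and Fcgr3 (0.929). Clec4n was closest to Atp6v0c (0.880), Ctc1 (0.869) and Cd63 (0.855). Clec9a was closest to Mycl (0.969), Sept3 (0.959) and Gm43914 (0.922), the last of which overlaps it in the annotation. Clec10a was closest to Cd209d (0.9303), Mgl2 (0.8799) and Pltp (0.862), and Clec12a to Spi1 (0.929), Mpeg1 (0.928) and Nampt (0.918).

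The female and male libraries were then compared within AGMs, with no replicate check. Over all macrophage-like cells (820 female, 799 male), Clec10a was at 43.3 CPM in the female and 110 CPM in the male library, a female to male ratio of 0.395 (0.323 to 0.481) from 147 and 331 UMIs. Clec4a1 (1.25, 1.11 to 1.41) and Clec12a (1.15, 1.03 to 1.28) were higher in the female library by less than 1.5-fold. Clec4a2 (0.952, 0.883 to 1.03), Clec4a3 (1.10, 0.992 to 1.21) and Clec4n (1.08, 0.945 to 1.24) did not differ beyond counting error. The Clec4a3 interval excluded 1 with the members among the clustering features (1.11, 1.008 to 1.23) and with a shallow unnamed cluster counted as macrophages (1.12, 1.012 to 1.23). Of the 6 members with at least 50 UMIs, none was past 1.5-fold higher and 1 was past 1.5-fold lower in the female library. The background was 3.1% of 8440 genes higher and 4.98% lower, and the median log2 ratio over all genes was -0.04. Clec9a rested on 6 female and 21 male UMIs.

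Clec10a was concentrated in Lyve1-high macrophages, which were 99 of the 820 female and 166 of the 799 male macrophage-like cells. With both libraries weighted to the same makeup of the 5 macrophage clusters, its female to male ratio was 0.609 in place of 0.395. Within Lyve1-high macrophages it was 0.567 (0.444 to 0.719), from 96 and 263 UMIs, and 25.3% of female and 42.1% of male thinned cells held a UMI (44.4% and 58.4% without thinning). The top 5 cells held 34.4% of the female and 15.97% of the male UMIs. In cDC2 the ratio was 0.790 (0.607 to 1.03) and in Aldh1a2-high macrophages 1.012 (0.532 to 1.89). The study states a mitochondrial ceiling of 1.2%. Read as a percent of UMIs, it left far fewer cells than the study describes, so its scale is not settled, and values under it are not those of the study's filter. Under this reading, 11 female and 12 male UMIs remained over all macrophage-like cells and the ratio was 1.63 (0.652 to 4.04).

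**Figure D3:**
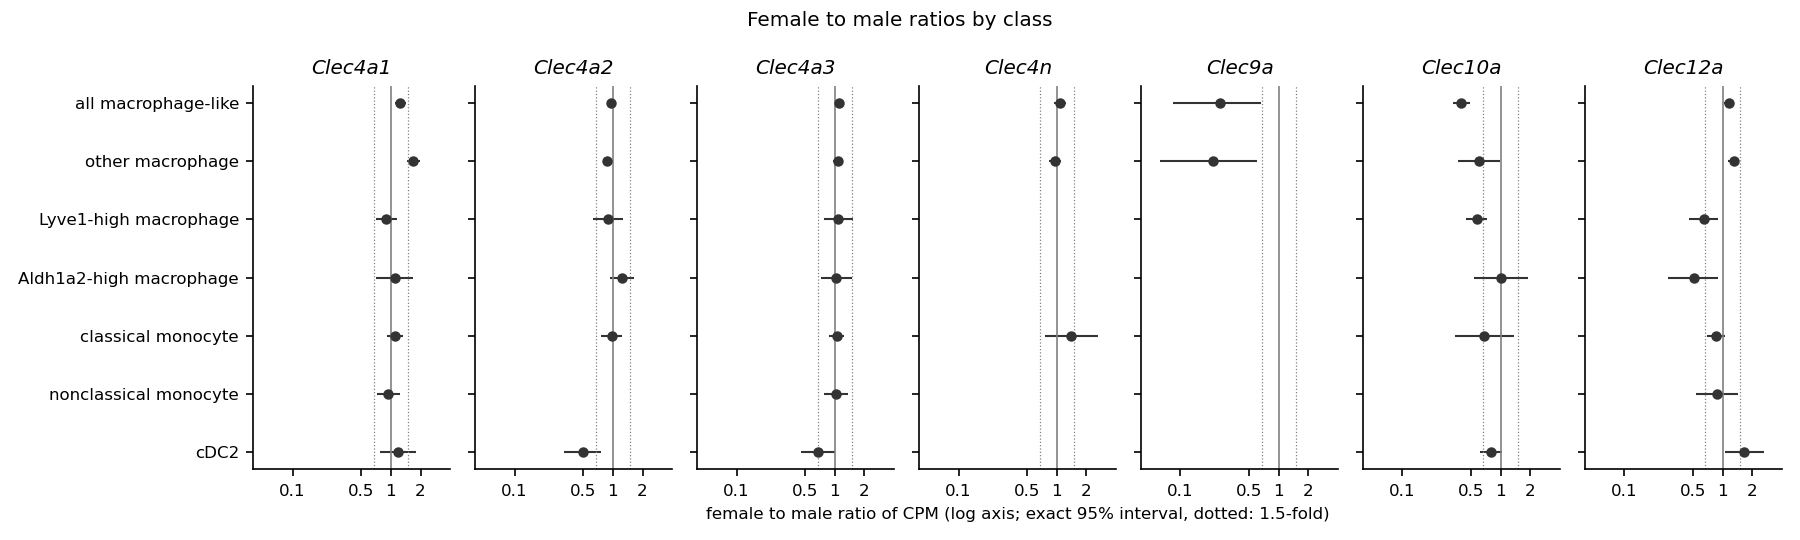
Female to male ratio of the CPM of each member on a log axis, over all macrophage-like cells and in 6 classes, with exact 95% intervals, a line at 1 and dotted lines at 1.5-fold either way. Classes with fewer than 20 UMIs of a member have no point. Clec10a lies below 1 in Lyve1-high macrophages (0.567), Clec4a1 above 1 in other macrophages (1.68), and Clec12a is on both sides of 1.

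Clec4a1 differed between the libraries in the other macrophages. It was at 188 CPM in the female and 112 CPM in the male library, a ratio of 1.68 (1.45 to 1.97), from 537 and 247 UMIs. The ratio was 1.56 (1.26 to 1.94), 1.87 (1.36 to 2.59) and 1.78 (1.29 to 2.47) in the clusters led by AA467197, Aif1 and Ms4a7. It was 18.4% against 11.8% of thinned cells, and 42.0% against 27.7% without thinning. In the monocytes, where Clec4a1 was highest, the ratio was 1.10 (0.921 to 1.32) for classical and 0.942 (0.720 to 1.23) for nonclassical cells, and it was 0.898 (0.702 to 1.14) in Lyve1-high macrophages. With per-cell marker gates the ratio in other macrophages was 1.41, which is under 1.5-fold. In the same cells Clec4a3 had a ratio of 1.08 (0.965 to 1.205), with 1.498 (1.22 to 1.84) in the cluster led by Ms4a7, and Clec4a2 had a ratio of 0.880 (0.811 to 0.955). In other macrophages, 4.5% of 7669 genes were past 1.5-fold higher and 4.13% lower in the female library. Among the 6 members with at least 50 UMIs, Clec4a1 was higher and Clec10a, at 11.2 and 18.6 CPM, lower (0.605, 0.369 to 0.984).

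Clec12a ran in opposite directions in the AGM subsets. Other macrophages had a female to male ratio of 1.29 (1.14 to 1.45), whereas Lyve1-high macrophages had 0.642 (0.455 to 0.893) and Aldh1a2-high macrophages 0.509 (0.275 to 0.902). Among the other macrophages it was 1.62 (1.24 to 2.14) in the cluster led by Aif1 and 1.61 (1.31 to 1.98) in the cluster led by Ms4a7, but 0.941 (0.779 to 1.14) in the cluster led by AA467197. With a ceiling of 1.2% of UMIs, whose scale is not settled, 22 and 35 UMIs remained in other macrophages and the ratio was 0.941 (0.526 to 1.65), and 8 and 15 UMIs remained in Aldh1a2-high macrophages, with a ratio of 1.27 (0.465 to 3.18). The Lyve1-high value was 0.794 (0.468 to 1.32) with a mitochondrial ceiling of 5% and 0.835 as a mean over cells, and the Aldh1a2-high value was 0.781 as a mean over cells, none of which is past 1.5-fold. In Lyve1-high macrophages, 6.1% of 2032 genes were past 1.5-fold higher and 9.99% lower in the female library. Of the 5 members with at least 50 UMIs there, Clec10a and Clec12a were lower and none was higher, with the Clec12a call lost under the settings just given. In cDC2, Clec12a was at 121 CPM in the female and 73.8 CPM in the male library (ratio 1.64, 1.05 to 2.62), while Clec4a2 was at 69.0 and 140.0 CPM (0.493, 0.321 to 0.753).

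MHC class II levels separated the other macrophages, mainly of the female library. Among thinned cells, those with 10 or fewer UMIs of Cd74, H2-Eb1, H2-Aa and H2-Ab1 per 1000 were called low, which gave 163 low and 463 high cells in the female and 17 low and 509 high cells in the male library, with 21 and 5 cells within 2 UMIs of that value. In the female library Clec12a was at 160 CPM in low and 279.6 CPM in high cells, a ratio of 0.571 (0.465 to 0.697). Clec4n was at 113 and 175 CPM (0.645, 0.503 to 0.820), Clec4a3 at 195 and 294 CPM (0.662, 0.549 to 0.795) and Clec4a2 at 369 and 465 CPM (0.793, 0.692 to 0.908). Clec4a1 was at 204 and 181 CPM (1.13, 0.928 to 1.36) and did not differ beyond counting error. So 3 of the 5 members with at least 50 UMIs were past 1.5-fold, all lower in low cells, where 15.3% of all genes were past 1.5-fold in either direction. Clec10a, from only 3 and 29 UMIs, was at 4.03 CPM in low and 13.8 CPM in high cells (0.292, 0.0568 to 0.941). In the male library the 17 low cells gave 49.9% of all genes past 1.5-fold, and no member's interval excluded 1.

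**Figure D4:**
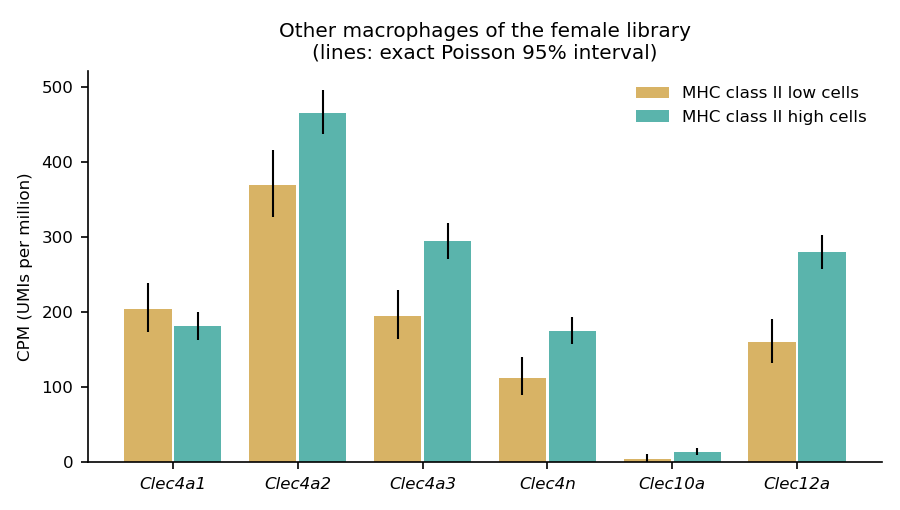
CPM of the 6 members with at least 20 UMIs in MHC class II low and high other macrophages of the female library (bars from 0), with exact Poisson 95% intervals as lines. Clec12a, Clec4n, Clec4a3 and Clec4a2 are lower in low cells, and Clec4a1 is at 204 and 181 CPM. Clec10a, from 3 and 29 UMIs, is at 4.03 and 13.8 CPM.

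The female to male comparison was repeated among MHC class II high cells alone. The ratio of Clec4a1 was 1.60 (1.36 to 1.89) and that of Clec12a was 1.44 (1.27 to 1.64). Clec4a3, at 1.16 (1.04 to 1.31), was also higher in the female high cells, and Clec4a2 (0.921, 0.844 to 1.005) and Clec4n (1.06, 0.911 to 1.23) did not differ beyond counting error.

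The genes through which these receptors signal were compared in all macrophage-like cells from a fixed list of 13 adaptor and signalling genes. None of the 13 was past 1.5-fold in either direction, against 3.1% of all genes higher and 4.98% lower. Fcer1g, the adaptor of Dectin-2, was at 3553 and 3351 CPM (ratio 1.06, 1.03 to 1.09), and Tyrobp, an adaptor of related receptors, at 3481 and 3092 CPM (1.13, 1.10 to 1.16). Ptpn6, a phosphatase recruited by inhibitory receptors, had a ratio of 1.25 (1.12 to 1.39), and Plcg2, a phospholipase downstream of Syk, of 1.32 (1.09 to 1.61). Syk itself was at 0.862 (0.746 to 0.996). Card9, at 9.72 and 8.28 CPM, rested on 33 and 25 UMIs (1.17, 0.677 to 2.06). By class, Ptpn6 was at 787 and 754 CPM in nonclassical monocytes, 355 and 416 in classical monocytes and 259.9 and 211 in other macrophages.

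Of 13 other C-type lectin genes, 8 had at least 50 UMIs in macrophage-like cells, and 1 was past 1.5-fold higher and 2 lower in the female library, against 3.1% and 4.98% of all genes. Mgl2, which like Clec10a binds galactose-type sugars, was at 182 and 409 CPM (0.445, 0.403 to 0.491). This ratio pools the macrophage clusters, of which the Lyve1-high one held 99 female and 166 male cells. Within Lyve1-high macrophages, the Mgl2 levels given with Clec10a above were nearly the same in both libraries. Clec1b, whose locus overlaps Clec9a, was at 11.8 and 20.5 CPM (0.574, 0.376 to 0.868). Clec4f, the gene counted as higher, was at 10.0 and 5.63 CPM (1.78, 0.967 to 3.395), an interval that includes 1. Mrc1, the mannose receptor, was at 339.7 and 468 CPM (0.726, 0.671 to 0.785) and Clec4b1, the activating DCIR relative, at 151 and 222 CPM (0.683, 0.608 to 0.768). Clec4d and Clec4e, which lie in the same family as Clec4n, were highest in neutrophils, at 507 and 629 CPM for Clec4d and at 410.4 and 427 CPM for Clec4e. Clec4e had 32 female and 5 male UMIs in macrophage-like cells, and Clec4a4 had 1 UMI.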

How the data were processed

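The deposited values are raw counts of UMIs per gene and barcode. Per the labels, the authors demultiplexed and counted with Cell Ranger 4.0.0 (mm10) and removed noise barcodes with DropletUtils 1.4.3. The libraries held 3963 female and 2685 male barcodes. Barcodes with at least 200 genes and at most 15% mitochondrial UMIs were kept. The study states a ceiling of 1.2%, which as a percent of UMIs kept 8.40% and 13.6% of barcodes, far fewer cells than the study describes, so its scale is not settled here. The highest Scrublet scores (scanpy 1.11.5) were removed at 0.8% per 1000 barcodes. Seurat 5.3.0 with sctransform 0.4.2 integrated the libraries on 2000 features, with 20 principal components at resolution 1. The members and 17 MHC class II and sex-linked genes were held out. CPM carry exact Poisson intervals, shares exact binomial (Clopper-Pearson) intervals and ratios exact conditional binomial intervals (scipy 1.17.1), all 95%. Ratios were checked on simulated counts with counting error alone, so the check does not cover variation between cells, animals or libraries. With 1 library per sex, no test was run. Members and gene lists were chosen with earlier results of these data known. Genes named are the members, the listed pathway genes and the 3 genes closest to each member. Alternatives were other gates, filters, resolutions, scalings and makeup weighting.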

Additional observations from a re-analysis of the deposited data

Results flagged for a closer look

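The female to male ratio of Clec12a pointed one way in one macrophage subset and the other way in others, with intervals that exclude 1 in each under the main settings: 1.29 in other macrophages, 0.642 in Lyve1-high and 0.509 in Aldh1a2-high macrophages. With a mitochondrial ceiling of 5% the Lyve1-high interval included 1 (0.794, 0.468 to 1.32). As means over cells the Lyve1-high and Aldh1a2-high values were 0.835 and 0.781. With a ceiling of 1.2% of UMIs, whose scale is not settled, the values were 0.941 (0.526 to 1.65) in other and 1.27 (0.465 to 3.18) in Aldh1a2-high macrophages, both on the other side of 1. The difference between the subsets was not tested, since each rests on 1 library per sex. Plasmacytoid dendritic cells (19 female and 9 male cells) were too few for the comparisons above, but 4 members had more than 3 UMIs in a library and an interval above that of NK cells there. Clec12a was at 435 CPM (299.6 to 611) in the female and 196 CPM (63.5 to 457) in the male library, from 33 and 5 UMIs. In the female library Clec10a was at 79.1 CPM from 6 UMIs, and Clec4a3 and Clec9a were each at 52.8 CPM from 4 UMIs. Clec4a2, at 39.6 CPM from 3 UMIs, was at the floor of 3 counts. C1qa was at 514 CPM in the female cells and had no UMI in the male cells, and the part of macrophage RNA in the female values was not tested.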

How the results depend on the processing

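Of the female to male ratios recomputed under alternatives, 111 stayed within the 95% interval of the main value, 10 moved outside it and 3 reversed. Of the ratios between classes, 96 stayed, 7 moved and 3 reversed. Of the levels in the highest class, 18 stayed and 10 moved, and of the shares of cells with a UMI, 4 stayed and 24 moved without thinning or with thinning to 500 UMIs. The alternatives for the ratios within other, Lyve1-high and Aldh1a2-high macrophages, and the counting of a shallow unnamed cluster (67 and 138 cells) as macrophages, were added after seeing the data, and the latter moved no ratio outside its main interval, though with it the interval of Clec4a3 over macrophage-like cells excluded 1 (1.12, 1.012 to 1.23). With a mitochondrial ceiling of 1.2% of UMIs, whose scale is not settled, the ratio over macrophage-like cells was 1.502 for Clec4a1, 0.853 for Clec4a2, 1.21 for Clec4a3, 1.63 for Clec10a (reversed) and 1.35 for Clec12a. For Clec12a it was 0.941 in other macrophages (reversed) and 1.27 in Aldh1a2-high macrophages (reversed, 8 and 15 UMIs). Fewer cells were left there. Weighting to the same makeup of clusters gave 0.609 for Clec10a. Per-cell gates gave 1.41 for Clec4a1 in other macrophages and 0.412 for Clec10a in Lyve1-high macrophages, and the 5% ceiling gave 0.411 for the latter. The mean over cells of each cell's CPM gave 2.05 for Clec4a1 and 1.46 for Clec12a in other macrophages. Between classes, per-cell gates reversed the female nonclassical to classical monocyte ratio of Clec4a1 (0.743) and Clec4a3 (0.688) and the female Lyve1-high to cDC2 ratio of Clec10a (0.771). They gave 1.03 for Clec4a2 (other to Aldh1a2-high macrophages, female) and 1.71 for Clec10a (Lyve1-high to cDC2, male). For Clec12a (classical monocytes to Lyve1-high macrophages, male) they gave 0.613 against 1.08 in the main settings. That value is on the other side of 1, though it is counted here as moved. The 5% ceiling gave 1.06 and 1.75 for Clec10a (female and male) and 1.47 for Clec12a (male), and the mean over cells gave 3.33 for Clec10a (male). The female ratio of Clec4a2 (other to Aldh1a2-high macrophages) had intervals that include 1 with no doublet removal (1.21, 0.994 to 1.49) and with the members among the clustering features (1.22, 0.994 to 1.505). The cause was not tested. Levels in the highest class were 0.448 to 1.10 times the main value with gates and 0.846 to 1.23 times with means over cells. At resolution 0.6 the nonclassical monocytes were no separate class, so their ratios could not be recomputed. No paired analysis was possible because there is 1 library per sex. Members with few UMIs (Clec9a outside cDC1, Clec10a in other macrophages) are limited by depth.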
